A study of Mus musculus with 6 samples.

Results

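A set of genes that mark the stem cells at the base of the intestinal crypt was followed through single-cell counts from mouse small intestine. The set is *Lgr5*, *Ascl2*, *Olfm4*, *Smoc2*, *Gkn3*, *Cdca7*, *Igfbp4*, *Soat1*, *Tnfrsf19* and *Prom1*, 10 of the 19178 genes listed in any of the 6 count tables. The genes were chosen by name, as known markers of these stem cells, with earlier results of these data in view, and all 10 had counts in every collection. Cells were isolated fresh from crypts of C57BL6 mice at 10 weeks of age, released with EDTA, dissociated with trypsin and run through Drop-seq, which captures polyadenylated RNA of single cells in droplets and reads its 3′ end. In the knockout group *Ptger4*, the gene of the prostaglandin E2 receptor EP4, was ablated in the epithelium. The flox group carried the floxed gene, and no animal was treated. Each genotype had 3 collections of droplets from 2 biological replicates. Neither the Cre driver nor the stretch of *Ptger4* that was removed is given in the sources used here.

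Crypt base columnar cells divide steadily and renew the whole epithelium. They sit between Paneth cells and depend on Wnt ligands and on R-spondins, which bind Lgr5 and its relatives and so keep the Wnt receptors Frizzled and Lrp at the cell surface. Cells that leave the base pass through a zone of fast division before they become enterocytes, goblet, enteroendocrine or tuft cells. The stem cell set mixes kinds of protein: a receptor for R-spondin, a transcription factor that Wnt signalling switches on, several secreted proteins, a nuclear protein linked to cell division, a sterol enzyme and membrane proteins.

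Stretches of 300 bases around the start of transcription (250 before, 50 after) were held by RefSeq, build GRCm38.p6, for 8 of the 10 genes, as 10 promoters. *Lgr5* and *Smoc2* were not matched. Printed here are the promoters of *Ascl2*, *Cdca7*, *Olfm4* and *Tnfrsf19*: *Ascl2* and *Cdca7* because their levels extended into cycling-like cells, *Olfm4* as a secreted stem cell marker and *Tnfrsf19* as the one gene with a Wnt-type match. Capitals mark matches to any of 3 groups of motifs, searched on both strands: CTTTGAT or its variants CTTTGTT and (with another last base or pair) CTTTGAA and also CTTTGTA, bound by TCF/LEF factors of the Wnt pathway; the palindromic E-box CAGCTG and the related CACCTG, bound by factors of the Ascl2 type; and TTTCCCGC, TTTGGCGC, TTTCGCGC or TTTGCCGC, bound by the cell cycle factors of the E2F family. The printed stretches are *Ascl2* at chr7:142969215-142969514 on the minus strand, *Cdca7* at chr2:72475969-72476268 on the plus strand, *Olfm4* at chr14:80000052-80000351 on the plus strand and *Tnfrsf19* at chr14:61037938-61038237 on the minus strand.
Ascl2: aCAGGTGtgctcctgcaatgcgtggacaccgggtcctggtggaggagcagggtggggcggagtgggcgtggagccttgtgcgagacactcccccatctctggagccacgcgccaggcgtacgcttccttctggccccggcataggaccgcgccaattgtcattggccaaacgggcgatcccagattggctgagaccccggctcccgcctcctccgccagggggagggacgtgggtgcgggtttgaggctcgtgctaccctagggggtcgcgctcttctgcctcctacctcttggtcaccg
Cdca7: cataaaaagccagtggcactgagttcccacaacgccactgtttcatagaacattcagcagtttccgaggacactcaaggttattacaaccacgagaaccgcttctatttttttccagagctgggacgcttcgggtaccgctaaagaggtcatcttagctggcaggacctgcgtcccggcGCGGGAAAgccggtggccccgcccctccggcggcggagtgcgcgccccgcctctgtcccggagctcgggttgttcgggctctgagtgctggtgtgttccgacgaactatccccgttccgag
Olfm4: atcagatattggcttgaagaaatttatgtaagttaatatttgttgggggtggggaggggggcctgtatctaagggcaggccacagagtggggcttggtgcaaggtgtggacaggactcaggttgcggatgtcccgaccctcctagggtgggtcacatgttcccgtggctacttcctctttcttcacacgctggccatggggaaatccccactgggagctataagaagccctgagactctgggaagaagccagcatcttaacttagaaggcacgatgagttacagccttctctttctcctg
Tnfrsf19: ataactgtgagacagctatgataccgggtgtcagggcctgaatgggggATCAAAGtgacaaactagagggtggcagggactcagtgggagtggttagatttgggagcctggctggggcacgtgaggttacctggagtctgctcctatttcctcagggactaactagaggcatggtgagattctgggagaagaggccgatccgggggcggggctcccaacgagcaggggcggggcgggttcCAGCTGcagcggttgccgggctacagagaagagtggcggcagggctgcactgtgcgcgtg
A TCF/LEF-type motif stood in 1 of the 10 promoters (*Tnfrsf19*, as printed), against 16.9% of all 32851 promoters of the same length. One of the pair of E-box motifs stood in 4 of the 10 promoters, from 3 of the 8 genes, against 32.9% of all promoters. An E2F-type motif stood in 1 of the 10, that of *Cdca7*, against 2.26% of all promoters. A further *Tnfrsf19* promoter, not printed, at chr14:61046806-61047105 on the minus strand, held 3 CACCTG matches and none of the TCF/LEF type. *Olfm4* held none of these letters in its window. A match describes the sequence and is not evidence of binding.

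The 6 tables held 1228337 to 3146909 counts each. Barcodes with 300 or more detected genes, and with mitochondrial genes giving 25% of counts or less, were kept as cells, which left 4890 of 13191 barcodes (37.1%) with median counts of 1070 to 1471.5 per collection. Most cells therefore gave few molecules of any one gene, and a cell without a molecule of *Lgr5* cannot be called *Lgr5*-negative. *Ptger4* itself had 26, 26 and 59 counts in the knockout collections, in order of their number, and 36, 14 and 32 in the flox collections. Drop-seq tags lie at the 3′ end, which may be outside the deleted part, so these counts do not check the labels. *Xist* had 1584 counts in knockout collection 3 and 1457 in flox collection 3, against 0 to 11 in the other 4. Some barcodes occurred in more than 1 collection, 107 pairs in all, and only within either of 2 sets: knockout 1 with flox 1 and 2, and knockout 2 and 3 with flox 3. Collections 1 and 2 of each genotype were read as biological replicate 1 and collection 3 as biological replicate 2, from the letter and number codes in the labels, which do not spell this out. Collections of 1 biological replicate may be technical repeats.

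Clusters were built without the genes under study, but their names were not. The 10 genes, the cell cycle genes and the mitochondrial genes were left out of the clustering, and the 17 resulting clusters were then named from marker lists. Since *Lgr5*, *Olfm4* and the rest are also stem cell markers, they took part in naming the stem cell-like class. Cluster 4 was named from 3 enriched markers, *Olfm4*, *Cdca7* and *Kcne3*, so its name rests on genes of the set. The height of the 10 genes in the class is therefore a description with no test. That class held 687 cells in 3 clusters, with a median of 1099 counts per cell: cluster 4 (370 cells, median 858, led by *Snhg3*, *Snhg4* and *Olfm4*), cluster 6 (302 cells, median 1683.5, led by *Gkn3*, *Ifitm3* and *Lgr5*) and cluster 16 (15 cells, 13 of them from knockout collection 1). The cycling-like class was a single cluster of 503 cells with a median of 2787 counts. There were 1124 enterocyte-like, 723 goblet-like, 193 Paneth-like, 95 enteroendocrine-like and 62 tuft-like cells, 1115 epithelial cells without a name and 388 immune cells (T or NK-like and B or plasma-like). The largest unnamed cluster, 847 cells with a median of 817 counts, was led by *Gm26917* and *Rn7sk*. Doublets were not removed.

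Levels are given as counts per 1000000 counts (CPM): unique molecular identifiers (UMIs, 1 for each captured molecule) of the gene, summed over the cells of a class and biological replicate and divided by the sum of all genes there. A pair of values for a genotype stands for its biological replicates 1 and 2. Whether more cells carry a transcript or each cell carries more of it cannot be told apart in such sums. Among the 5 classes with at least 20 cells in every sum, all 10 genes had their highest mean of the 4 sums in the stem cell-like class. That class contributed 10.1% of all kept counts. Only *Lgr5*, *Olfm4* and *Smoc2* had sums there that did not overlap the next class. Here and below, overlap was read for the genes of the set alone, and its share over all genes was not counted. The cycling-like class came next for 7 of the 10, Paneth-like cells for *Igfbp4* and *Tnfrsf19* (2 UMIs in all for *Tnfrsf19*, both in flox), and goblet-like cells for *Prom1*.

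*Lgr5* (chr10:115450311-115587780, minus strand), the R-spondin receptor after which the cells are called, measured 96.3 and 65.9 CPM in knockout and 70.2 and 58.8 CPM in flox stem cell-like cells. In cycling-like cells it measured 23.3 and 21.7 CPM in knockout and 11.9 and 13.9 CPM in flox. Every stem cell-like sum was above every cycling-like sum. The stem cell-like class held 90 of the 188 *Lgr5* UMIs (47.9%), the cycling-like class 38 (20.2%) and the unnamed cells 38. Goblet-like cells had 6 UMIs, Paneth-like cells 5 and enterocyte-like cells 4. Tuft-like cells also had 6 UMIs, in 4 of only 62 cells, so more per cell than the far larger goblet-like class. None was found in 95 enteroendocrine-like cells, which allows a share of cells with a UMI of up to 3.16%. This sets no limit on cells that express the gene. Below the cycling-like class the sums of Paneth-like, goblet-like and enterocyte-like cells overlapped one another. Within the stem cell-like class *Lgr5* reached 102 CPM in cluster 6 and 20.9 CPM in cluster 4, so the larger cluster was not the *Lgr5*-rich one. Immune cells, which should lack the gene, gave 1 cell with a UMI of 388 (0.258%) at a median of 718 counts, against 1351.5 in epithelial cells.

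*Ascl2* (chr7:142966829-142969264, minus strand), the basic helix-loop-helix factor needed to keep crypt stem cells, was found at overlapping levels in stem cell-like and cycling-like cells. It measured 36.7 and 75.3 CPM in knockout and 42.1 and 32.1 CPM in flox stem cell-like cells. In cycling-like cells it measured 39.6 and 18.1 CPM in knockout and 25.7 and 31.3 CPM in flox. The stem cell-like class held 48 of its UMIs (34.8%) and the cycling-like class 62 (44.9%). Outside them it was scarce, with 21 UMIs in 1115 unnamed cells (9.10 CPM), 2 each in 62 tuft-like and 95 enteroendocrine-like cells, and 1 each in goblet-like, Paneth-like and enterocyte-like cells. None was found in 388 immune cells, which allows a share of cells with a UMI of up to 0.773%. The cycling-like sums did not overlap those of Paneth-like cells, the next class.

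Among the secreted proteins, *Olfm4* (chr14:79984081-80023139, plus strand), an olfactomedin family glycoprotein, had the most even stem cell-like sums, 193 and 207 CPM in knockout and 190 and 187 CPM in flox. In cycling-like cells it measured 151 and 58.0 CPM in knockout and 103 and 132 CPM in flox, below all 4 stem cell-like sums. It was also found in Paneth-like cells, at 24.2 and 32.7 CPM in knockout and 35.7 and 131 CPM in flox, where the highest value came from flox replicate 2. Goblet-like cells were lower, with no overlap, at 10.1 and 10.7 CPM in knockout and 6.14 and 11.5 CPM in flox. *Smoc2* (chr17:14279506-14404790, plus strand), a matricellular calcium-binding protein, measured 154 and 151 CPM in knockout and 178 and 166 CPM in flox stem cell-like cells. Its cycling-like sums were 117 and 58.0 CPM in knockout and 81.1 and 122 CPM in flox. Unlike *Lgr5*, it stayed measurable in goblet-like cells, at 20.1 and 37.3 CPM in knockout and 30.7 and 36.5 CPM in flox, which made up 11.6% of its UMIs. Its 15 UMIs in 62 tuft-like cells gave 112 CPM, a value that rests on 10 cells.

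*Gkn3* (chr6:87383256-87388935, minus strand), a secreted gastrokine, had most of its counts in stem cell-like and cycling-like cells. Of its 94 UMIs, 55 (58.5%) lay in the stem cell-like class and 29 (30.9%) in the cycling-like class. It had no UMI in 723 goblet-like cells, which allows a share of cells with a UMI of up to 0.415%, and none in 193 Paneth-like, 95 enteroendocrine-like, 62 tuft-like or 388 immune cells. Its levels were uneven between replicates: 73.3 and 18.8 CPM in knockout and 37.4 and 26.7 CPM in flox stem cell-like cells, and 44.3 and 10.9 CPM in knockout and 2.97 and 3.48 CPM in flox cycling-like cells. *Igfbp4* (chr11:99041244-99054392, plus strand), which binds insulin-like growth factors, measured 48.1 and 56.5 CPM in knockout and 56.2 and 69.5 CPM in flox stem cell-like cells. Goblet-like cells held 18.2% of its UMIs, and their sums, 14.1 and 23.1 CPM in knockout and 10.7 and 11.5 CPM in flox, lay above all enterocyte-like sums, none of which passed 2.68 CPM.

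*Cdca7* (chr2:72476159-72486893, plus strand), a nuclear zinc-finger protein induced by E2F and Myc factors in dividing cells, measured 422 and 433 CPM in knockout and 405 and 358 CPM in flox stem cell-like cells. Cycling-like cells had 368 and 232 CPM in knockout and 263 and 209 CPM in flox, which overlapped the stem cell-like range and lay above Paneth-like cells. It was not confined to the crypt base: 16 of 388 immune cells (4.12%) had a UMI, at 55.2 CPM, as did 46 of 1124 enterocyte-like cells. *Soat1* (chr1:156424525-156474331, minus strand), the enzyme that esterifies cholesterol in the endoplasmic reticulum, measured 71.1 and 94.2 CPM in knockout and 39.8 and 37.4 CPM in flox stem cell-like cells. Both knockout sums were above both flox sums. Its neighbours in the order of classes overlapped throughout, and 8 of 388 immune cells (2.06%) had a UMI.

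*Tnfrsf19* (chr14:60963875-61046490, minus strand), a receptor of the tumour necrosis factor receptor family known as Troy, was the scarcest. It had 37 UMIs in all, 15 of them (40.5%) in stem cell-like and 9 (24.3%) in cycling-like cells. *Prom1* (chr5:43993620-44102032, minus strand), a membrane glycoprotein of cell protrusions, was the exception to the pattern. It measured 77.9 and 75.3 CPM in knockout and 115 and 144 CPM in flox stem cell-like cells, 103 and 85.3 CPM in knockout and 82.9 and 76.7 CPM in flox goblet-like cells, and 33.4 and 52.0 CPM in knockout and 58.4 and 41.8 CPM in flox enterocyte-like cells. Each class overlapped its neighbour in the order, and the stem cell-like class held only 13.4% of its UMIs. Its 26 UMIs in enteroendocrine-like and 19 in tuft-like cells gave 140 and 141 CPM. A UMI was found in 8.54% of enterocyte-like cells, against 0.515% of immune cells (2 of 388), at median depths of 1424 and 718 counts.

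**Figure D1:**
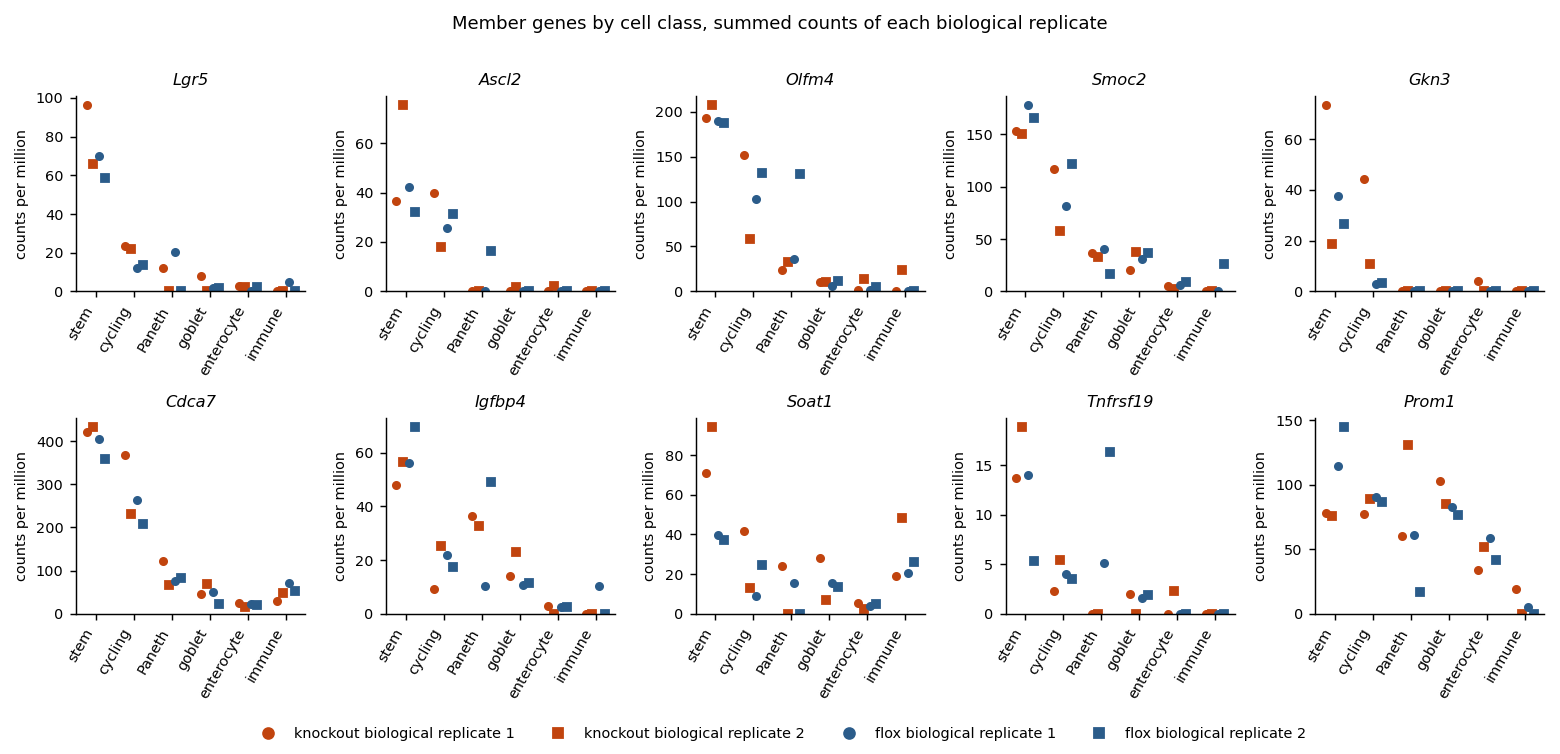
Each panel shows one gene in CPM for 6 classes of cells, with knockout (orange) left of flox (blue) and 1 point per biological replicate (circles, replicate 1; squares, replicate 2). The 4 stem cell-like points of *Lgr5*, *Olfm4* and *Smoc2* stand clear of the cycling-like points, whereas the *Prom1* points of stem cell-like and goblet-like cells intermix.

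Shares of cells with a UMI depend on depth, so each cell was also thinned at random to 500 UMIs. In the full counts, *Lgr5* was detected in 11.4% of stem cell-like and 6.36% of cycling-like cells; after thinning the shares were 3.66% and 0.600%. *Olfm4* was detected in 22.4% of stem cell-like and 25.4% of cycling-like cells in the full counts, against 8.28% and 7.40% after thinning. *Cdca7* was detected in 35.8% and 53.9% in the full counts, against 14.97% and 14.4% after thinning. The higher full-count shares of *Olfm4* and *Cdca7* in cycling-like cells thus went with their deeper counts and did not hold at equal depth. The same held for *Ascl2*, found in 5.53% of stem cell-like and 10.1% of cycling-like cells in the full counts and in 1.75% and 1.6% after thinning.

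Joint detection was counted in 2871 epithelial cells thinned to 1000 UMIs. The number expected under independence was worked out within each collection and summed over the 6. By that measure 24 of the 45 gene pairs were expected in at least 2 cells. Of the 24, 22 were seen together more often than expected, with a median ratio of observed to expected cells of 2.24. Pairs of other genes were not counted, so no background stands beside these numbers. *Olfm4* and *Cdca7* shared 56 cells against 18.3 expected, *Olfm4* and *Smoc2* 22 against 7.93, and *Smoc2* and *Cdca7* 40 against 18.3. *Lgr5* shared 10 cells with *Olfm4* against 2.19 expected, and *Ascl2* likewise shared 10 with *Olfm4* against 2.17. The highest ratio was 5.63, for *Olfm4* with *Soat1*, in 17 cells against 3.02. The pairs of *Prom1* were mixed. It shared 11 cells with *Olfm4* against 12 expected, 2 with *Gkn3* against 2.07 and 12 with *Smoc2* against 11.9. With *Ascl2* it shared 7 against 3.41, with *Igfbp4* 7 against 4.08 and with *Cdca7* 40 against 28.4. Within the 1202 dividing cells of the same depth, 21 of 23 pairs were above expectation with a lower median ratio of 1.59.

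**Figure D2:**
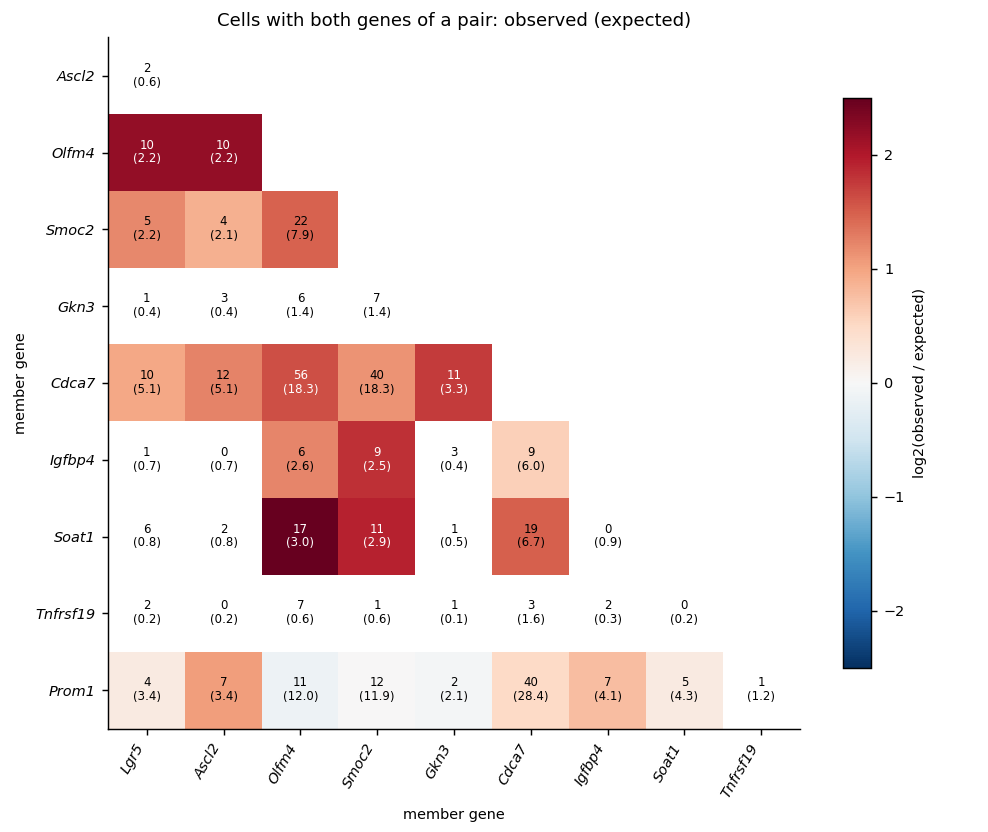
Each cell of the grid gives, for 2 genes, the number of epithelial cells with a UMI of both after thinning to 1000 UMIs and, in brackets, the number expected if the genes were independent. Colour shows log2 of their ratio (white where under 2 cells were expected), and red, more cells than expected, fills most coloured squares outside the *Prom1* row (independence taken within each collection), up to 17 cells against 3.02.

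Most epithelial cells, 72.2%, had a UMI of none of the 10 genes at this depth. Cells with at least 3 of the genes numbered 60, of which 34 (56.7%) were stem cell-like, 15 (25%) cycling-like and 7 unnamed, with 1 each among Paneth-like, enteroendocrine-like, goblet-like and tuft-like cells. The mean number of genes detected per cell was 0.947 in stem cell-like cells, 0.659 in cycling-like, 0.486 in tuft-like, 0.286 in enteroendocrine-like, 0.277 in Paneth-like, 0.208 in goblet-like and 0.0801 in enterocyte-like cells, with 0.0842 in immune cells. The mean of enterocyte-like cells was thus close to that of immune cells, and the other means were above it. Most of the immune mean came from *Cdca7*, found in 6.32% of immune cells at this depth. It is therefore not a background level for all 10 genes. Within the stem cell-like class the mean was 1.12 in cluster 6 and 0.604 in cluster 4.

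An *Lgr5* UMI was found in 157 epithelial cells in the full counts. Of these, 78 (49.7%) were stem cell-like, 32 (20.4%) cycling-like and 29 (18.5%) unnamed, with 6 goblet-like, 5 Paneth-like, 4 tuft-like and 3 enterocyte-like cells. They were deeper than the 4345 epithelial cells without one, with a median of 2302 against 1337 counts, so their higher shares of the other genes are not comparisons at equal depth. *Olfm4* was found in 43.3% of cells with an *Lgr5* UMI and 7.25% of cells without, *Smoc2* in 38.9% and 8.81%, and *Cdca7* in 47.8% and 18.1%. *Soat1* was found in 21.7% and 3.29%, *Igfbp4* in 15.3% and 3.01%, *Ascl2* in 13.4% and 2.19%, *Gkn3* in 10.8% and 1.13%, *Tnfrsf19* in 5.73% and 0.621%, and *Prom1* in 26.8% and 14.6%.

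Read the other way, most cells with any of the other genes had no *Lgr5* UMI. The share that had one was 25.8% for *Gkn3* (17 of 66 cells), 25% for *Tnfrsf19* (9 of 36), 19.2% for *Soat1* (34 of 177), 18.1% for *Ascl2* (21 of 116) and 17.8% for *Olfm4* (68 of 383). It was 15.5% for *Igfbp4*, 13.7% for *Smoc2*, 8.70% for *Cdca7* and 6.21% for *Prom1*. Cells with the other genes but no *Lgr5* UMI lay in several classes. Among stem cell-like cells without one, 34.0% had *Cdca7*, 18.9% *Olfm4*, 15.8% *Smoc2* and 4.43% *Ascl2*. Among cycling-like cells without one, 52.7% had *Cdca7*, 28.0% *Prom1*, 25.5% *Smoc2*, 23.8% *Olfm4* and 9.13% *Ascl2*. In goblet-like cells without one, *Prom1* (19.1%), *Cdca7* (8.65%) and *Smoc2* (6.97%) were the stem cell genes found most.

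For a test at equal depth, cells with and without an *Lgr5* UMI after thinning to 1000 UMIs were summed per biological replicate and compared with edgeR's quasi-likelihood test, with the biological replicate of each genotype as a block. This left 15 and 6 knockout and 14 and 6 flox cells with a UMI, so the sums are small. *Olfm4* had 7 and 0 counts in knockout and 4 and 1 in flox cells with *Lgr5*, against 49 and 15 in knockout and 59 and 37 in flox cells without. With a log2 fold change of 1.77 (SE 0.64) it did not pass (edgeR adjusted p = 0.105). *Smoc2* (0.81, SE 0.80), *Cdca7* (0.42, SE 0.56) and *Prom1* (-0.36, SE 0.87) did not pass either, with edgeR adjusted p-values of 0.679, 0.758 and 0.891. So 0 of the 4 other genes of the set with enough counts were called. Of the 4004 genes tested, 0.15% were called higher (3.42% either way), and the median of all genes was -0.61. Those called higher include *Lgr5* itself, whose rise was fixed by the split. Among the 4, unadjusted p was lowest for *Olfm4*, at 0.00558 in edgeR. DESeq2 called none of the 4 either, and 680 of all genes tested had an unadjusted edgeR p under 0.05. Of other genes, *Slc12a2*, a chloride cotransporter of crypt base cells, rose by 1.34 (SE 0.35, edgeR adjusted p = 0.00678), with mean levels of 1217 CPM in cells with *Lgr5* and 322 CPM in cells without. *Noxa1* (2.03, edgeR adjusted p = 0.0469) and *Hat1* (2.24, edgeR adjusted p = 0.04997) also rose, both just under the threshold of 0.05. There were 131 genes called lower, led by *Apol10a* and *Clec2h*, which had 0 counts in all 4 sums of cells with *Lgr5*, against means of 428.5 and 347.6 CPM in cells without. The count of genes called lower was unstable, at 29 in DESeq2, 80 with another random thinning, 67 without knockout collection 3 and 69 without flox collection 1. The genes called higher were unstable too, with *Lgr5* counted among them. Their number was 1 at a thinning to 500 UMIs, 3 without knockout collection 3 and 29 at 2000 UMIs. At 500 UMIs the 1 gene was *Lgr5* itself, so *Slc12a2*, *Noxa1* and *Hat1* were not called there.

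The same comparison on the full counts was added after these values were seen. It used 54 and 27 knockout and 54 and 22 flox cells with *Lgr5*, and the depth of the cells differs between its sides. Here *Olfm4* had 190 and 178 CPM in knockout and 177 and 270 CPM in flox cells with *Lgr5*, against 54.2 and 23.4 CPM in knockout and 46.1 and 49.6 CPM in flox cells without. *Smoc2* had 145 and 95.7 CPM in knockout and 189 and 210 CPM in flox cells with *Lgr5*, against 51.4 and 37.8 CPM in knockout and 44.1 and 56.5 CPM in flox cells without. Neither gene's ranges overlapped. The log2 fold changes were 2.15 for *Olfm4* (SE 0.21, edgeR adjusted p = 8.58e-10) and 1.71 for *Smoc2* (SE 0.22, adjusted p = 3.96e-07). In all, 7 of the 8 other genes tested rose, where 4.53% of the 8634 genes tested did, *Lgr5* itself among them.

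The further genes that rose in the full counts were the following. *Gkn3* had 95.1 and 13.7 CPM in knockout and 15.8 and 45.1 CPM in flox cells with *Lgr5*, against 14.2 and 2.70 CPM in knockout and 4.81 and 1.98 CPM in flox cells without, a log2 fold change of 2.57 (SE 0.48, edgeR adjusted p = 0.000212). *Ascl2* had 31.7 and 54.7 CPM in knockout and 44.2 and 30.04 CPM in flox cells with *Lgr5*, against 12.7 and 7.64 CPM in knockout and 10.7 and 9.92 CPM in flox cells without (1.94, SE 0.41). *Soat1* had 58.9 and 41.0 CPM in knockout and 47.3 and 75.1 CPM in flox cells with *Lgr5*, against 27.3 and 9.89 CPM in knockout and 10.2 and 12.9 CPM in flox cells without (1.81, SE 0.37). The ranges of *Gkn3* crossed by the margin between 13.7 and 14.2 CPM and those of *Ascl2* and *Soat1* were separate. *Igfbp4* rose by 1.55 (SE 0.38) and *Cdca7* by 1.28 (SE 0.18), although the *Cdca7* level of 120 CPM in flox replicate 2 cells with *Lgr5* lay within the range of cells without. *Prom1* had 81.5 and 75.2 CPM in knockout and 97.8 and 90.1 CPM in flox cells with *Lgr5*, against 73.9 and 80.5 CPM in knockout and 84.6 and 72.4 CPM in flox cells without, and its ranges overlapped (0.11, SE 0.23, edgeR adjusted p = 0.856). *Tnfrsf19*, with too few counts to be tested, had 9.06 and 13.7 CPM in knockout and 6.31 and 45.1 CPM in flox cells with *Lgr5*, against at most 3.11 CPM in any sum of cells without. The test of whether the equal-depth contrast differed between knockout and flox called 0 of the 6 other genes tested and 0 of 5311 genes (27 had an unadjusted edgeR p under 0.05, and no other tool was run for it).

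**Figure D3:**
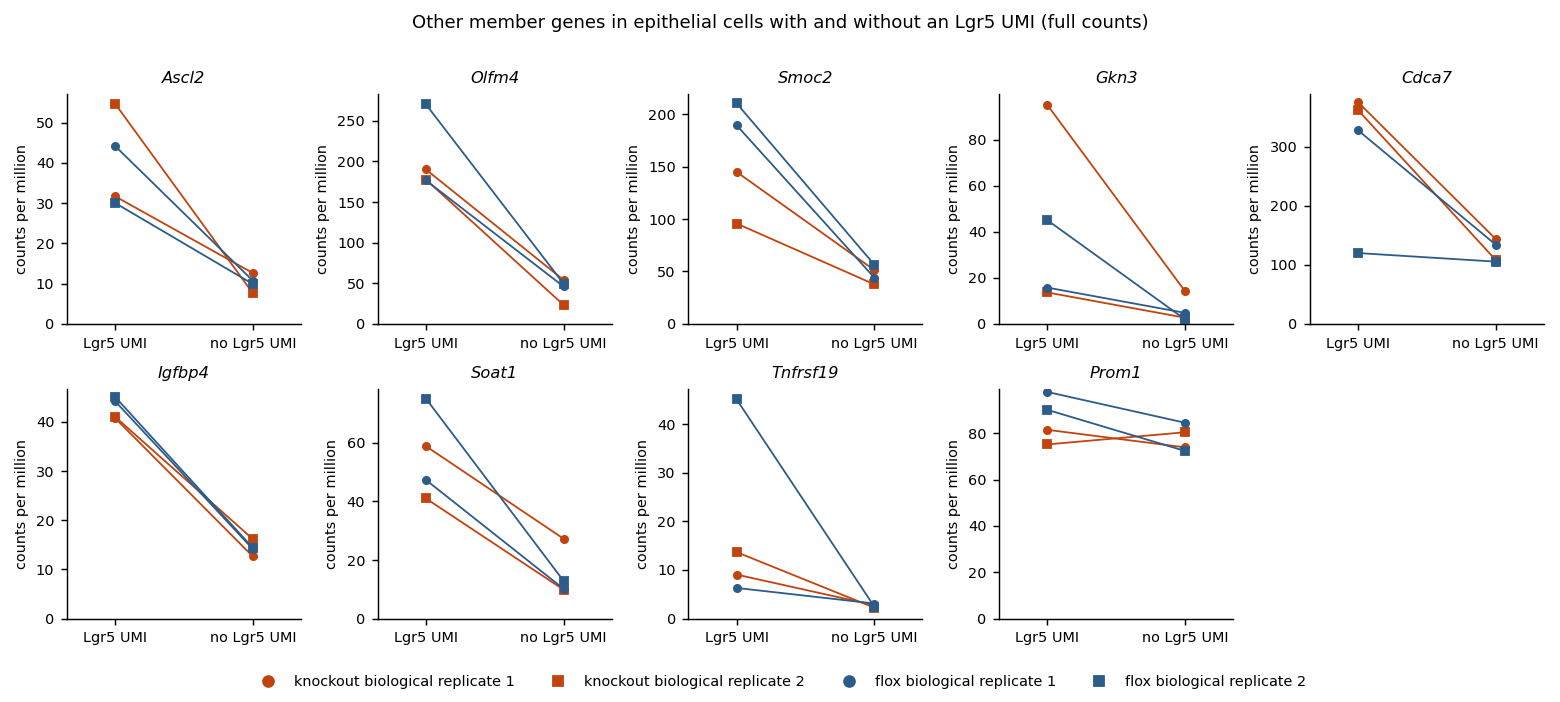
Each panel shows one gene in CPM in epithelial cells with (left) and without (right) an *Lgr5* UMI in the full counts, with a line for each biological replicate (knockout orange, flox blue; circles, replicate 1; squares, replicate 2). For *Olfm4* and *Smoc2* all 4 lines fall to the right, while the *Prom1* lines stay between 72.4 and 97.8.

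Division was scored from a list of S and G2/M phase genes that holds none of the 10. Epithelial cells were thinned to 500 UMIs and called dividing with at least 3 UMIs of the list (821 knockout and 982 flox cells) and non-dividing with 0 (637 knockout and 600 flox cells). Full counts were then summed per state and biological replicate. Median depth was alike between the states, 1412 counts in dividing and 1409 in non-dividing knockout cells, and 1510.5 in dividing and 1558 in non-dividing flox cells. All 8 genes with enough counts to be tested rose in dividing cells, where 25.2% of the 7830 genes tested were called higher and 51.4% either way. Their median log2 fold change was 1.93, against 0.000773 over all genes tested. The states differ in their mix of classes: 80.4% of cycling-like, 62.9% of unnamed, 60.5% of stem cell-like and 27.4% of goblet-like cells counted as dividing. So did 37.3% of tuft-like, 35.5% of Paneth-like, 20.5% of enteroendocrine-like and 7.14% of enterocyte-like cells, so the score is not confined to classes known to divide. The part of this mix in the differences was not tested.

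*Lgr5* had 32.3 and 22.3 CPM in knockout and 24.5 and 23.3 CPM in flox dividing cells, against 18.5 and 4.68 CPM in knockout and 9.13 and 3.20 CPM in flox non-dividing cells. All dividing sums were above all non-dividing sums, with a log2 fold change of 1.36 (SE 0.32; edgeR gave an adjusted p = 0.000905). *Ascl2* had 25.3 and 23.4 CPM in knockout and 20.3 and 23.3 CPM in flox dividing cells, against 1.23 and 0 CPM in knockout and 5.71 and 0 CPM in flox non-dividing cells. Its log2 fold change of 3.31 (SE 0.52, adjusted p = 6.46e-06) is a fitted value, since the second replicate of each genotype had no count in non-dividing cells. Both the receptor and the transcription factor were higher in dividing cells in every replicate, and *Ascl2* was near 0 in the others.

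*Olfm4* had 105 and 62.7 CPM in knockout and 90.2 and 104 CPM in flox dividing cells, against 17.3 and 3.12 CPM in knockout and 12.6 and 7.99 CPM in flox non-dividing cells (2.97, SE 0.23, edgeR adjusted p = 4.16e-11). *Smoc2* had 88.1 and 63.7 CPM in knockout and 81.9 and 109 CPM in flox dividing cells, against 24.6 and 7.81 CPM in knockout and 13.7 and 20.8 CPM in flox non-dividing cells (2.24, SE 0.20, adjusted p = 9.08e-10). *Igfbp4* had 22.7 and 28.7 CPM in knockout and 20.9 and 25.6 CPM in flox dividing cells, against 8.63 and 7.81 CPM in knockout and 7.99 and 3.20 CPM in flox non-dividing cells (1.63, SE 0.33, adjusted p = 0.000213). No range of these 3 secreted proteins overlapped. *Gkn3*, which had too few counts to be tested, had 31.4 and 5.31 CPM in knockout and 7.30 and 8.15 CPM in flox dividing cells, against 4.93 and 1.56 CPM in knockout and 1.14 and 0 CPM in flox non-dividing cells.

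*Cdca7* had 242 and 199 CPM in knockout and 225 and 178 CPM in flox dividing cells, against 50.5 and 48.4 CPM in knockout and 35.4 and 32.0 CPM in flox non-dividing cells, with no overlap (2.24, SE 0.14, edgeR adjusted p = 3.08e-13). *Soat1* had 34.9 and 18.1 CPM in knockout and 15.6 and 20.9 CPM in flox dividing cells, against 17.3 and 6.25 CPM in knockout and 11.4 and 9.59 CPM in flox non-dividing cells (0.85, SE 0.30, adjusted p = 0.0198). *Prom1* had 94.2 and 93.5 CPM in knockout and 101 and 76.8 CPM in flox dividing cells, against 56.7 and 68.7 CPM in knockout and 53.6 and 60.7 CPM in flox non-dividing cells (0.52, SE 0.15, adjusted p = 0.00515). The rise of *Prom1* was small and without overlap, and the *Soat1* ranges overlapped. The call of *Soat1* was lost with DESeq2 (adjusted p = 0.138), without the replicate block (0.0700), at a thinning to 1000 UMIs (0.124), with a minimum of 600 genes (0.0512) without knockout collection 1 (0.0652) or 3 (0.0734) and in the second barcode-sharing set alone (0.0629). That of *Prom1* was lost with DESeq2 (adjusted p = 0.0707), at 1000 UMIs (0.124) and in the second set alone (0.164). *Tnfrsf19*, too scarce to be tested, had 4.36 and 3.19 CPM in knockout and 3.65 and 8.15 CPM in flox dividing cells, against 1.23 and 0 CPM in knockout and 2.28 and 0 CPM in flox non-dividing cells. The difference between genotypes in the dividing contrast was called for 0 of the 8 genes by edgeR's interaction test, against 0.0345% of the 8697 genes tested, of which 370 had an unadjusted p under 0.05; no other tool was run for it.

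**Figure D4:**
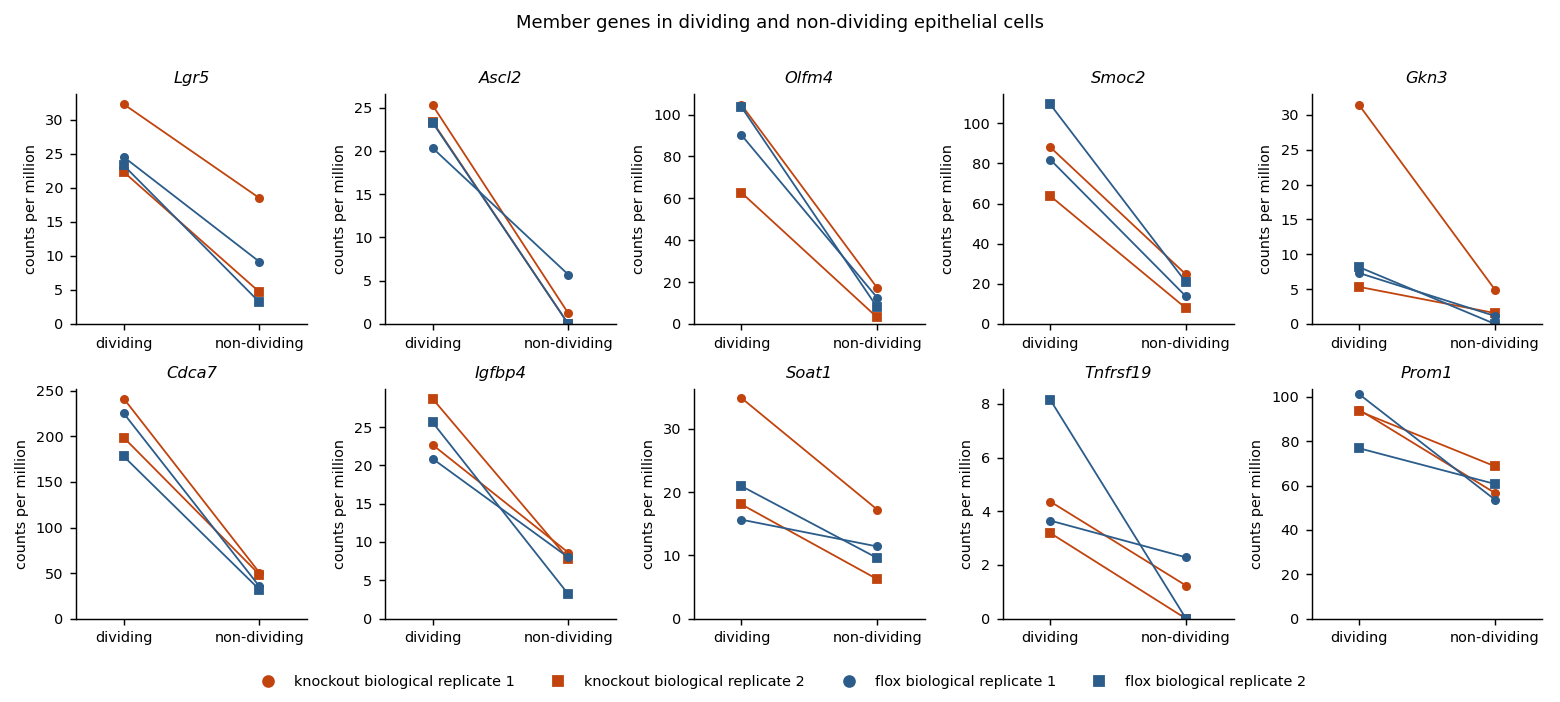
Each panel shows one gene in CPM in dividing (left) and non-dividing (right) epithelial cells, with a line for each biological replicate (knockout orange, flox blue; circles, replicate 1; squares, replicate 2). Every *Ascl2*, *Olfm4*, *Smoc2* and *Cdca7* line falls steeply to the right, and those of *Prom1* fall less.

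By phase, 301 dividing cells had more S than G2/M UMIs, 1407 had more G2/M and 95 were tied, and 1235 cells with 1 or 2 UMIs of the list lay between the states. Over all samples, *Lgr5* had 44.2 CPM in S-led, 22.1 in G2/M-led, 9.57 in intermediate and 9.48 in non-dividing cells. *Ascl2* had 38.8, 19.2, 7.02 and 2.03 CPM in the same order, *Olfm4* 149, 78.7, 34.8 and 10.8 CPM, and *Cdca7* 345, 190, 111 and 41.6 CPM. In these pooled values the genes were highest in S-led cells and lower at each step, except that *Lgr5* was level between intermediate and non-dividing cells. The order of S-led over G2/M-led held in all 4 replicates for *Lgr5*, *Olfm4* and *Cdca7*, whereas *Ascl2* in flox replicate 2 had 14.3 CPM in S-led and 24.1 in G2/M-led cells. *Smoc2* had 99.1 CPM in S-led and 83.7 in G2/M-led cells, and *Prom1* 87.0 and 96.1 CPM, so *Prom1* lacked the S-led peak in pooled values. No test was made between phases.

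The difference between dividing and non-dividing cells was also present outside the stem cell-like class. There, *Lgr5* had 27.4 CPM in S-led, 14.1 in G2/M-led and 3.50 in non-dividing cells, *Olfm4* 115, 61.4 and 3.85 CPM, *Smoc2* 76.8, 68.6 and 11.9 CPM, and *Cdca7* 269, 161 and 31.1 CPM. *Ascl2* had 31.1 and 15.9 CPM in S-led and G2/M-led cells, and a single UMI in 1167 non-dividing cells. *Prom1* had 95.1, 94.0 and 58.8 CPM. Single replicates differed: in knockout replicate 2 *Olfm4* had 40.3 CPM in S-led and 47.5 in G2/M-led cells and *Smoc2* 40.3 and 61.1 CPM. These values are descriptions, since the class was named with the help of the same genes.

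Within the stem cell-like class dividing and non-dividing cells were compared in the same way. Knockout replicate 2 had under 10 non-dividing cells there and was left out, and 4 genes were tested in the other 3 samples. None was called by edgeR, against 2.65% of the 1470 genes tested, of which 154 had an unadjusted p under 0.05; DESeq2 called 4 genes and none of the set. *Lgr5* had 94.6 CPM in knockout replicate 1, 64.1 in flox replicate 1 and 68.1 in flox replicate 2 dividing cells, against 290.1, 136.0 and 130.4 CPM in non-dividing cells of the same samples. The non-dividing values rest on 11, 5 and 2 UMIs in 32, 20 and 12 cells. This amounts to a log2 fold change of -1.36 (SE 0.47, unadjusted p = 0.00409, edgeR adjusted p = 0.118), opposite in sign to that over all epithelial cells. Stem cell-like cells between the states, with 10 *Lgr5* UMIs in 178 cells, had 37.8 CPM over all samples, below both, so the levels were not graded. *Olfm4* (-0.17, SE 0.41), *Smoc2* (-0.03, SE 0.46) and *Cdca7* (0.25, SE 0.33) were near 0. *Slc12a2* fell by 0.67 on the log2 scale in dividing stem cell-like cells (edgeR adjusted p = 0.0391). That call was lost with DESeq2, which called 0 genes lower. It was also lost in edgeR without the replicate block, with a minimum of 600 genes and with no filter on low counts, where 0 genes were called lower.

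Other genes of the pathway were read from lists in the dividing contrast, where 25.2% of all genes tested were called higher and 51.4% either way. Of 8 tested Wnt targets and feedback genes, 7 rose and 0 fell in dividing cells, with a median of 1.13: *Cd44* by 1.88, *Myc* by 1.78, the Wnt inhibitor *Axin2* by 1.48 (SE 0.18), the ephrin receptors *Ephb3* by 1.36 and *Ephb2* by 0.80, the transcription factor *Sox9* by 0.89 and *Ccnd1* by 0.73 on the log2 scale. *Rgmb* was at 0.40 (edgeR adjusted p = 0.361). Of 4 tested genes of the R-spondin and Wnt receptor complex, *Rnf43*, a ligase that removes Frizzled receptors, rose by 1.57, *Lrp6* fell by 0.57 and *Fzd5* fell by 0.48, and *Lgr4*, the widely expressed relative of *Lgr5*, was at 0.31 (adjusted p = 0.162). The 3 tested genes named after reserve or slowly cycling stem cells all rose in dividing cells, *Mex3a* by 1.68, *Lrig1* by 1.14 and *Hopx* by 0.91.

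Of 10 tested further markers of crypt base cells, 7 rose and 2 fell. The water channel *Aqp4* rose by 2.14, the potassium channel subunit *Kcne3* by 1.57, *Slc12a2* by 1.495 and *Cdk6* by 1.48, whereas *Phlda1* fell by 1.05 and *Pdgfa* fell by 0.82. Of 6 tested genes of Notch, EGF and BMP signalling, *Notch1* rose by 1.39, its target *Hes1* rose by 0.53 and the BMP target *Id3* fell by 0.84. These calls, 2 higher and 1 lower of the 6, were near the 51.4% of all genes tested that were called either way. The genes outside these lists that rose most were *Casc5* (3.73), a kinetochore protein, the linker histone gene *Hist1h1b* (3.66), *Slfn9* (3.64) and *Esco2* (3.61), an acetyltransferase of cohesin. Those that fell most were genes of lipid and nutrient handling by enterocytes, *Fabp1* (-5.14), *Apoa1* (-4.89), *Apoa4* (-4.89) and the peptidase *Dpep1* (-4.84).

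Knockout and flox were compared by summing all kept cells of each biological replicate, 2 against 2. None of the 9 genes with enough counts was called by edgeR, against 0.00947% of the 10555 genes tested, which is 1 gene. *Gkn3* alone of the 9 had an unadjusted p under 0.05. DESeq2 called none of the 9 and 1 gene in all, and 235 genes had an unadjusted edgeR p under 0.05 (102 in DESeq2). *Lgr5* had 24.1, 21.3 and 12.02 CPM in the knockout collections by number and 17.9, 14.6 and 11.8 CPM in the flox collections, and the ranges overlapped (log2 fold change 0.30, SE 0.34). *Ascl2* had 11.4, 16.2 and 10.4 CPM in knockout and 10.6, 19.4 and 10.4 CPM in flox collections (0.08, SE 0.34). *Olfm4* had 56.9, 69.0 and 32.7 CPM in knockout and 46.4, 76.8 and 55.6 CPM in flox collections (-0.14, SE 0.27). *Smoc2* had 46.9, 67.5 and 40.6 CPM in knockout and 56.0, 45.7 and 60.8 CPM in flox collections (-0.18, SE 0.23). All of these overlapped between the genotypes.

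*Gkn3* had 16.7, 23.5 and 3.32 CPM in knockout collections and 4.64, 7.78 and 3.30 CPM in flox collections. The first pair of knockout collections, both of biological replicate 1, lay above all flox collections and the third did not. The difference was 1.43 on the log2 scale (SE 0.64, unadjusted p = 0.0422, edgeR adjusted p = 0.9996), and without knockout biological replicate 1 it was -0.42. *Soat1* showed a like pattern, with 33.5, 24.96 and 12.4 CPM in knockout and 12.6, 16.5 and 15.1 CPM in flox collections (0.62, SE 0.36), and -0.18 without knockout biological replicate 1. *Cdca7* had 153, 163 and 123 CPM in knockout and 146, 147 and 105 CPM in flox collections (0.19, SE 0.21). *Igfbp4* had 13.4 to 17.4 CPM in knockout and 13.6 to 17.2 CPM in flox collections (0.04, SE 0.28), and *Prom1* had 68.3 to 78.8 CPM in knockout and 69.0 to 86.1 CPM in flox collections (0.01, SE 0.19). *Tnfrsf19*, with 2.90 to 3.35 CPM in knockout and 0.972 to 3.97 CPM in flox collections, was too scarce to be tested. The ranges of these 4 genes overlapped.

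Within the stem cell-like class 0 of 9 genes were called, against 0.0222% of the 4504 genes tested by edgeR. *Soat1* was the sole gene of the 9 with an unadjusted p under 0.05, DESeq2 called none of the 9, and over all genes 228 had an unadjusted p under 0.05 in edgeR and 36 in DESeq2. Cluster 4 gave 163 and 47 cells to this class in knockout and 107 and 53 in flox replicates 1 and 2, and cluster 6 gave 103 and 29 in knockout and 105 and 65 in flox. *Soat1* had 111, 24.8 and 94.2 CPM in knockout and 38.1, 43.3 and 37.4 CPM in flox collections, so 2 knockout collections stood above flox and 1 below (log2 fold change 1.05, SE 0.43, unadjusted p = 0.0241, edgeR adjusted p = 0.856). *Prom1* had 63.9, 94.2 and 75.3 CPM in knockout and 114, 116 and 144 CPM in flox collections, with no overlap (-0.64, SE 0.33, edgeR adjusted p = 0.935). *Smoc2* had 149, 159 and 151 CPM in knockout and 184, 166 and 166 CPM in flox collections, also with no overlap. Its difference was smaller than its SE (-0.12, SE 0.29, edgeR adjusted p = 0.99). The share of all genes tested that separated in this way was not counted. *Lgr5* had 115, 74.4 and 65.9 CPM in knockout and 83.1, 43.3 and 58.8 CPM in flox collections (0.47, SE 0.36, adjusted p = 0.983), and without knockout biological replicate 1 the value was -0.02. *Gkn3* had 76.7, 69.4 and 18.8 CPM in knockout and 34.6, 43.3 and 26.7 CPM in flox collections (0.86, SE 0.51). *Ascl2* was at 0.32, *Cdca7* at 0.20, *Olfm4* at 0.12 and *Igfbp4* at -0.22 on the log2 scale, each smaller than its SE (0.50, 0.22, 0.28 and 0.44). The summed level of 11 measured Paneth cell markers in the class was 1361 and 1507 CPM in knockout and 1938 and 2119 CPM in flox replicates. That of 14 T or NK cell markers was 29.8 and 9.42 CPM in knockout and 37.4 and 26.7 CPM in flox. B or plasma cell markers went the other way, at 701 and 960 CPM in knockout and 693 and 679 CPM in flox. Goblet cell markers overlapped, at 894 and 1356 CPM in knockout and 1039 and 920 CPM in flox. Enterocyte markers overlapped too, at 5920 and 6789 CPM in knockout and 4487 and 8662 CPM in flox. In cluster 6 alone *Prom1* had 96.0, 104 and 107 CPM in knockout and 121, 83.2 and 171 CPM in flox collections. These overlapped only through flox collection 2, with 8 UMIs in 27 cells. The other flox collections lay above all knockout collections. *Smoc2* there had 173, 236 and 169 CPM in knockout and 211, 156 and 233 CPM in flox collections, which also overlapped. The part of other cells' RNA in the levels of *Prom1* and *Smoc2* was not tested.

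The other classes gave no call either. In cycling-like cells 0 of 8 genes were called, against 0.0323% of 6196 genes in edgeR (171 with an unadjusted p under 0.05; DESeq2 1 gene), with *Lgr5* at 0.87 (SE 0.53), *Soat1* at 1.02 (SE 0.63) and *Cdca7* at 0.35 (SE 0.27). In goblet-like cells 0 of 3 were called, against 0.0157% of 6366 (127; DESeq2 1 gene), with *Cdca7* at 0.62 (SE 0.40). In enterocyte-like cells 0 of 2 were called, against 0.176% of 6236 (279; DESeq2 0 genes). In Paneth-like cells none had enough counts. Of the listed Wnt targets 0 of 9, and of the receptor complex 0 of 8, were called in all kept cells.

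Shares of epithelial cells with a UMI, thinned to 500 UMIs, were compared between the genotypes too. With 2 against 2 replicates an exact two-sided permutation test cannot go below 0.333, and the 10 genes gave 0.333 to 1. *Lgr5* was found in 0.840% ± 0.060 of knockout epithelial cells and in 1.26% ± 0.341 of flox epithelial cells (SD over n = 2; exact p = 0.333), and *Olfm4* in 2.34% ± 1.69 of knockout and 3.82% ± 0.038 of flox cells (exact p = 0.333). *Cdca7* was found in 6.17% ± 1.15 of knockout and 6.54% ± 0.461 of flox cells (exact p = 1), and *Prom1* in 4.26% ± 0.913 of knockout and 3.94% ± 0.784 of flox cells (exact p = 0.667). The direction for *Lgr5* turned with depth: its share was 1.46% in knockout and 1.28% in flox after thinning to 1000 UMIs, and 3.46% in knockout and 3.25% in flox without thinning. No order is read from these shares.

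**Figure D5:**
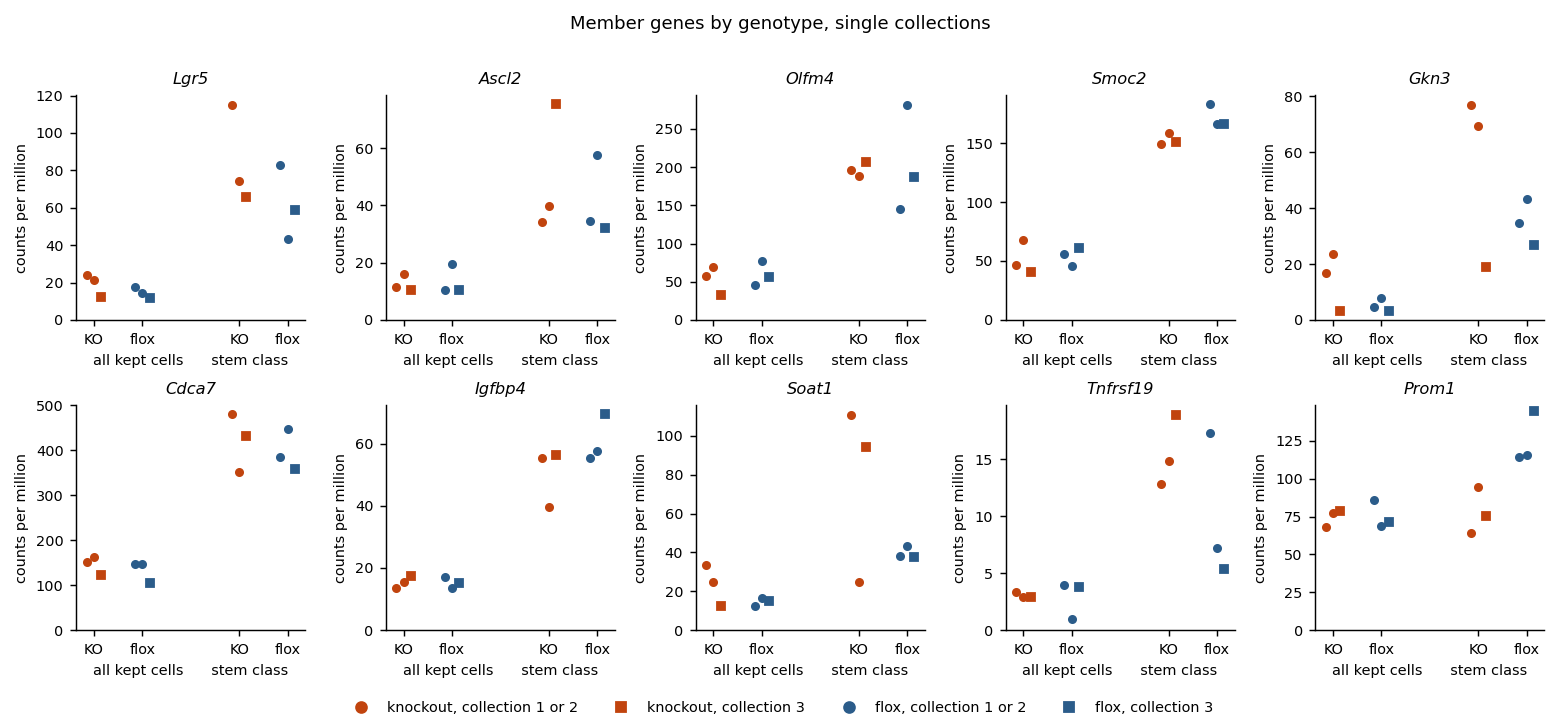
Each panel shows one gene in CPM in single collections, knockout (orange) left of flox (blue), in all kept cells and in the stem cell-like class (circles, collections 1 and 2; squares, collection 3). The points overlap in most panels. In the stem cell-like class all 3 knockout points of *Prom1* (63.9 to 94.2) lie below the flox points (114 to 144). Within cluster 6 flox collection 2 (83.2, from 8 UMIs in 27 cells) lay below the knockout collections, and the other flox collections above them. The share of all genes that separate in this way was not counted.

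The likeness of other genes to *Lgr5* was described by Pearson's r of log2(CPM + 10) over 34 sums of class and biological replicate with at least 20 cells, among 3203 genes with a mean of at least 50 CPM. The points share libraries and differ in depth, and *Lgr5* helped to name one of the classes, so r is given without a test. The genes outside the set most like it were *Ifitm3* (0.78), an interferon-induced membrane protein, *Hspd1* (0.77), a mitochondrial chaperone, and *Myb* (0.76), a transcription factor. They were followed by *Rps2*, *Hnrnpab*, *Rplp1*, *Clca4*, *Hspe1*, *Stmn1* and *Rpl10a*, at 0.71 to 0.72. Within the set, *Gkn3* (0.80), *Smoc2* (0.75), *Cdca7* (0.75), *Olfm4* (0.72), *Ascl2* (0.68) and *Tnfrsf19* (0.66) were nearest to *Lgr5*. *Igfbp4* (0.53), *Soat1* (0.49) and *Prom1* (0.37) were farther. *Ascl2* was closest to *Olfm4*, at 0.86, and *Prom1* to *Smoc2*, at 0.75.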

How the data were processed

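Drop-seq counts from crypt cells of 3 knockout and 3 flox collections were analysed. The deposited tables hold whole-number counts of molecules per gene and barcode, not normalized. The authors aligned reads with STAR 2.6 to build mm10, per the submitters' processing notes; for the annotation and UMI settings the sources used here give nothing. The genes and gene lists were chosen with earlier results of these data known.

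For clustering, log values scaled to 10000 counts a cell were used; 2000 variable genes, leaving out the 10 genes, the cell cycle list and mt- genes, gave 30 principal components, a graph of 15 neighbours and Leiden clusters at resolution 1 (scanpy 1.11.5, leidenalg 0.10.2, igraph 0.11.9). A cluster was named when at least 3 markers of a class were 1.5-fold enriched and in 10% of its cells, with at least 2 among its top 10 genes or 50% of the class's markers enriched. No doublet caller was run. Gene positions came from a GENCODE annotation of build GRCm38.

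Counts were summed per biological replicate and state. edgeR 4.0.16 (R 4.3.3, limma 3.58.1; TMM factors, filterByExpr with a minimum count of 10, quasi-likelihood test, Benjamini-Hochberg over all genes, threshold 0.05) was the test, and DESeq2 1.42.0 an alternative. Sums had at least 20 cells per class or 10 per state. All 10 genes are named; up to 8 others per direction in the *Lgr5* and dividing contrasts were eligible, with the largest fold change among called genes, a mean of at least 50 CPM and the same direction in all blocks, leaving out cell cycle genes and predicted genes. The other lists held Wnt targets, the receptor complex, reserve stem cells, Notch, EGF and BMP signals, and further stem cell markers. Alternatives were other filters, thinning depths, scalings and blocks, and leaving out collections; those on barcode-sharing sets, shared barcodes, cluster 6 or 16 and full counts were chosen after seeing the data.

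On simulated data, edgeR called 64% of 2-fold and 97% of 4-fold changes among 10589 genes in the genotype comparison. It called 87% and 100% among 7800 genes in the dividing contrast, and 4% and 31% among 3958 genes in the thinned *Lgr5* contrast. Of unchanged genes it called 5, 11 and 8 in the same order. Changes were placed only in genes with higher counts, at a fixed dispersion, so these shares need not hold for scarcer genes. Floors for a count of 0 (3 counts) cover counting error only. Other tools were python 3.11.15, numpy 2.4.6, scipy 1.17.1, pandas 2.3.3 and matplotlib 3.10.9.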

Additional observations from a re-analysis of the deposited data

How the results depend on the processing

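Of 936 values under alternative settings, 15 newly passed the threshold, 11 no longer passed it, 6 turned their sign and 904 did none of these. The 904 include 86 that changed sign where the value as reported was not called and within 1 SE of 0. The *Lgr5* contrast depended most on depth. At 1000 UMIs it called 0 of the other genes, without the replicate block 1 (*Olfm4*), with single collections as the block 1 (*Olfm4*) and in the first barcode-sharing set alone 1 (*Soat1*). Thinned to 2000 UMIs it called 4, on full counts 7, on full counts of cells with at least 1000 UMIs 7 and on full counts without barcodes above 20000 counts 8. Leaving out 1 collection or replicate gave 0 to 1 (1, *Olfm4*, without flox collection 1). The dividing contrast called 7 to 8 genes when 1 was left out, and 4 in the first barcode-sharing set alone, where 5 were tested. *Lgr5* was not called in that set (1.15, edgeR adjusted p = 0.0520). The cause was not tested. With no filter on low counts, 1 gene (*Gkn3*) was called between genotypes in cycling-like cells.

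Values that reversed did so without knockout biological replicate 1. In all kept cells *Gkn3* then stood at -0.42, over a range of -0.42 to 2.19 when samples were left out, and *Soat1* at -0.18 (-0.18 to 1.11). In cycling-like cells *Cdca7* stood at -0.0774 (-0.0774 to 0.68) and *Soat1* at -0.14 (-0.14 to 1.71). *Lgr5* in stem cell-like cells stood at -0.0190 (-0.0190 to 0.77). *Cdca7* in goblet-like cells was -0.30 in the first barcode-sharing set alone. The causes were not tested.

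The pairing of samples by number was checked. Same-numbered collections of the genotypes deviated together with r of -0.26, 0.14 and 0.46, so the numbers are not shown to pair them. For the 2 pairs of biological replicates r was 0.39. With 2 replicates per genotype the deviations from the mean mirror each other. Both pairs therefore give the same 1 value, and unlike numbers give its negative. With the biological replicate number as a replicate block, 0 genes of the set were called in every genotype comparison, and over all genes the calls went to 3 from 1 in all kept cells, to 5 from 1 in stem cell-like cells and to 25 from 11 in enterocyte-like cells. The scarcity of UMIs limits *Tnfrsf19* and *Gkn3* throughout, and every result within the stem cell-like class.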
